A study of Homo sapiens with 12 samples.

Results

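Glucose starvation of control cells was described here from 6 of the 12 libraries of an RNA sequencing series. Libraries were chosen by their sample titles. The starved group holds 3 libraries of control A375 cells kept without glucose for 5 h, and the control group holds 3 libraries of control A375 cells that were not starved. A375 is an established human melanoma line. Of 61209 gene names, 18526 passed the filter on low counts and were all used. The other 6 libraries hold A375 cells depleted of OGDH, which decarboxylates 2-oxoglutarate in the tricarboxylic acid cycle, with glucose or starved for the same 5 h. Titles call these cells KO and the series text speaks of knockdown. The labels do not say what the control cells carry, whether either line is a clone, or whether a group's 3 libraries stem from different cultures. P-values therefore measure only the spread between these libraries, which may be technical.

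Glucose feeds glycolysis, the hexosamine pathway that makes the sugar donor for protein glycosylation, and many biosynthetic routes. Loss of glycosylation leaves proteins misfolded in the endoplasmic reticulum (ER), where the sensors IRE1 (ERN1), PERK (EIF2AK3) and ATF6 start the unfolded protein response, which raises chaperones through ER stress elements in promoters. Phosphorylation of eIF2 by PERK, GCN2 (EIF2AK4) or other kinases starts the integrated stress response, in which ATF4 and its partners raise amino acid transporters, synthetases and the factor DDIT3. Heat shock factors, AP-1 and serum response factor read other stresses, while E2F and the DREAM complex hold the promoters of replication and mitosis genes.

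The sequences below show a motif that several of the ER genes with increases held. They were taken from RefSeq's promoter windows (GRCh38.p14), matched by symbol for 11816 of the 18526 genes, and only the 250 bases upstream of the start were searched, on both strands. The ER stress element, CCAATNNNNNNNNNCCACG or its reverse complement, stood in 16 of the 11816 windows (0.135%). Of the 16 genes, 14 were higher in starved cells, 1 was lower and 1 was not called by the test given below. Of all 11816 windows, 2097 belonged to genes that were higher and 2237 to genes that were lower. The 14 include the near copies FRG2B and FRG2C. Their control libraries held 1 counted fragment or none, so they passed the low-count filter through other groups. The motifs were chosen with the results known, so these counts are a description. Each sequence reads 5′ to 3′ on the gene's strand with the match in capitals. Its distance is counted from the start site back to the first base of the match.
HSPA5: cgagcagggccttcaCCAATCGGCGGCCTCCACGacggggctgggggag
XBP1: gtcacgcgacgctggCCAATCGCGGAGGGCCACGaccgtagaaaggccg
FICD: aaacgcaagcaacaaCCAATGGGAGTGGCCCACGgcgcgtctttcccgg
CRELD2: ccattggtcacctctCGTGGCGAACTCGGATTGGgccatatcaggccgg
CALR: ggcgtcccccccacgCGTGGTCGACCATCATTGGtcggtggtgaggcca
ERO1B: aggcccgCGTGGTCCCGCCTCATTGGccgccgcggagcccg
FRG2B: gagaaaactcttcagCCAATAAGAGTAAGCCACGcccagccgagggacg
These windows lie at chr9:125241376-125241424 on the minus strand (HSPA5, 66 bases before the start), chr22:28800588-28800636 on the minus strand (XBP1, 52 bases), chr12:108515108-108515156 on the plus strand (FICD, 154 bases) and chr22:49918539-49918587 on the plus strand (CRELD2, 80 bases). The others lie at chr19:12938369-12938417 on the plus strand (CALR, 225 bases), chr1:236282168-236282208 on the minus strand (ERO1B, 243 bases) and chr10:133626824-133626872 on the minus strand (FRG2B, 62 bases). In HSP90B1 the element occurred at 194 and at 89 bases before the start.

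Levels are CPM, counts per 1000000 of the TMM-scaled library size, and are given for replicates 1, 2 and 3 in that order. A gene was called when its adjusted p was under 0.05 in edgeR's quasi-likelihood test, with the Benjamini-Hochberg adjustment over the 18526 genes. Log2 fold changes are starved over control cells with their standard error (SE). The 6 libraries held 21559889 to 25546615 counted fragments, and SEs of the log2 fold changes had a median of 0.22. Control replicate 2 and starved replicate 3 stood apart: their deviations from the group means followed the GC content of transcripts with slopes of -0.31 and 0.27 log2 units per 10 percentage points. Mitochondrially encoded genes took 4.97%, 14.6% and 6.35% of the counts in control cells and 14.4%, 13.2% and 4.11% in starved cells, which overlapped (two-sided exact permutation p = 1.0; 3 against 3 cannot go below 0.10). Without these 2 libraries the mean shares were 5.66% and 13.8% (two-sided exact permutation p = 0.33, the smallest that 2 against 2 allow). The 2 left out are those whose shares lay with the other group, so this gap follows from the choice. OGDH lay between 129 and 166 CPM in the 6 control libraries and between 32.3 and 45.1 CPM in the 6 depleted ones. Of the melanocyte and melanoma markers, SOX10 lay at 581, 670.3 and 647 CPM in control cells and MITF at 23.9, 39.02 and 27.3 CPM. The pigment genes PMEL, MLANA and DCT had at most 34 counts per library in these 6 libraries, and TYR had 0 or 1. Of the markers of other cell types, 3 of 10 for blood, 3 of 7 for endothelial cells and 5 of 8 for fibroblasts passed the filter, with summed levels of at most 4.64, 4.196 and 15.3 CPM. Of the 8 epithelial markers KRT8, KRT18 and CLDN4 passed, with sums of 361 to 419 CPM in control and 815 to 919 CPM in starved cells, while EPCAM and CDH1 had at most 6 counts in any of these libraries. Of these 3 only KRT18 was called (log2 fold change 1.33). KRT8 overlapped, at 101, 50.7 and 91.0 CPM in control and 78.4, 72.3 and 139 CPM in starved cells.

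**Figure D1:**
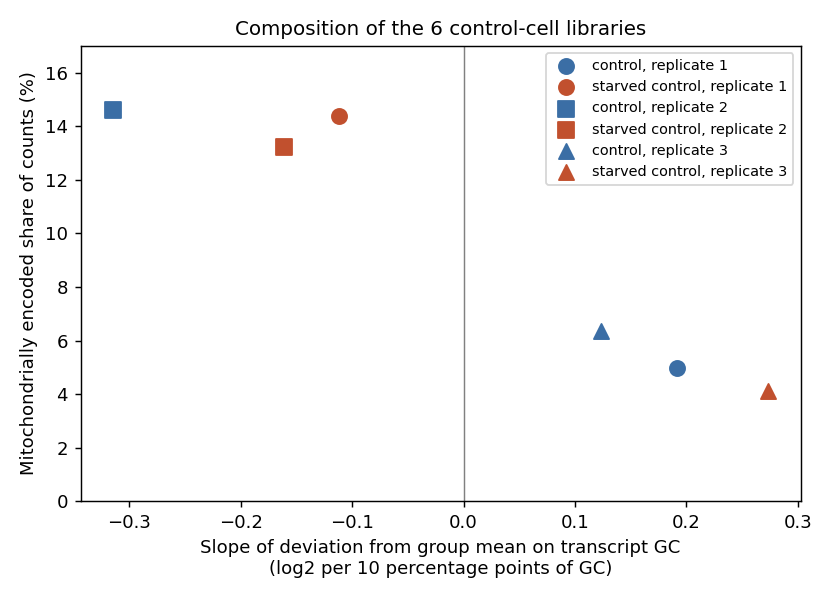
Composition of the 6 control-cell libraries. The horizontal axis gives the slope of each library's deviation from its group mean on transcript GC content (log2 per 10 percentage points), the vertical axis the mitochondrially encoded share of its counts (%), and each point is 1 library. Control replicate 2 (14.6%) lies with starved replicates 1 and 2, and starved replicate 3 (4.11%) lies with control replicates 1 and 3.

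Starvation for 5 h changed 6400 of 18526 genes (34.5%), of which 3151 were higher (17%) and 3249 lower (17.5%). The list counts given below are to be read beside these shares. Increases reached further than decreases. At least 4-fold differences numbered 430 higher and 172 lower, at least 8-fold 146 and 20, and at least 16-fold 64 and 2, while the median of all genes stood at a log2 fold change of -0.023. These counts were not split by level, and folds of genes near 0 in control cells are uncertain. Of 3662 genes with a control mean under 1 CPM, 635 were higher and 290 lower. From 1 to 10 CPM 690 and 1208 were, from 10 to 100 CPM 1405 and 1439, and over 100 CPM 421 and 312. Called genes that were higher took 18.6%, 18.8% and 18.8% of the tested counts in control cells and 31.6%, 31.8% and 32.6% in starved cells. Those that were lower took 13.7%, 11.7% and 13.6% and then 6.202%, 6.385% and 7.466%. Starved and control libraries did not overlap for 7439 of the 18526 genes (40.2%), among them 2900 of those called higher and 3004 of those called lower. Most genes named below were chosen by a small p. The lack of overlap stated for them follows largely from that choice and is no added support. Of the 1355 long noncoding RNA genes tested, 13.7% were higher and 23.5% lower, against 18.5% and 18.5% of 13295 protein-coding genes. Transcript GC content had a median of 48.2% in higher and 51.6% in lower protein-coding genes, against 49.7% in those not called. Because 2 libraries differed along GC content, a fit with a GC offset per library was also made, and it called 8215 genes. The offset follows each library's deviation from the mean of all libraries. It therefore also takes out any GC trend that the starved libraries share. A call lost with the offset does not tell such a trend from library composition. Without the 3 libraries that stood apart, the third of which was starved OGDH-depleted replicate 3, 11298 genes were called, 5682 higher and 5616 lower. In the control-cell libraries left, mitochondrially encoded genes took 4.97% and 6.35% of counts in control and 14.4% and 13.2% in starved cells. Library composition and starvation therefore cannot be told apart in that fit, here and wherever its counts are given below.

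The largest increases among genes reaching 20 CPM were in HSPA6, XIRP1, KRT16, HMOX1, RASD1, KPRP, HSPA1A, ID2, FOS and ARC. HMOX1, which breaks down heme, lay at 18.1, 9.82 and 16.6 CPM in control cells and 3241, 2776 and 4611 CPM in starved cells. ID2, an inhibitor of basic helix-loop-helix factors, lay at 2.89, 3.37 and 2.55 CPM in control cells and 94.5, 94.04 and 85.2 CPM in starved cells. The rule that chose these genes, and the decreases that follow, required groups that do not overlap. HMOX1 was higher by 239-fold (log2 fold change 7.898, SE 0.32, adjusted p = 2.34e-08) and ID2 by 30.99-fold (log2 fold change 4.95, SE 0.14, adjusted p = 2.36e-09). RASD1, a Ras-related GTPase induced by glucocorticoids, went from 0.357, 0.562 and 0.251 to 30.9, 28.1 and 39.7 CPM (6.39, SE 0.24). KPRP, a keratinocyte protein, went from 0.555, 0.865 and 0.335 to 38.4, 40.7 and 18.3 CPM (5.78, SE 0.42). XIRP1, which binds actin in muscle, went from 0.198, 0 and 0.0419 to 37.03, 34.3 and 42.2 CPM. Since XIRP1 was close to 0 in control cells, its fitted log2 fold change of 8.75 moved to 10.47 without control replicate 1.

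The largest decreases among genes reaching 20 CPM were in CCL2, DIXDC1, MEOX2, C21orf58, ZMYM3, PIF1, SPC24, SOX5, PAQR4 and INAVA. CCL2, the chemokine that attracts monocytes, lay at 21.2, 20.7 and 22.02 CPM in control cells and 2.08, 2.74 and 1.98 CPM in starved cells. ZMYM3, a chromatin-associated zinc finger protein, lay at 49.2, 45.3 and 52.8 CPM in control cells and 7.91, 8.71 and 8.84 CPM in starved cells. The log2 fold change was -3.24 for CCL2 (SE 0.16, adjusted p = 1.03e-07) and -2.53 for ZMYM3 (SE 0.11, adjusted p = 2.93e-08). DIXDC1, a Wnt pathway protein, went from 24.8, 33.4 and 26.1 to 2.69, 3.33 and 3.28 CPM (-3.17, SE 0.16). MEOX2, a homeobox factor, went from 33.2, 45.2 and 39.9 to 5.72, 5.05 and 4.42 CPM (-2.96, SE 0.18). The others include SOX5 (-2.25, SE 0.23), a SOX family factor, PIF1 (-2.34, SE 0.37), a DNA helicase, and SPC24 (-2.29, SE 0.199), a kinetochore protein.

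Among the genes with the largest gains by the difference of mean CPM were HSPA5, MT-RNR2, HSPA8, HMOX1, FTH1, DNAJB1, ACTG1, HSP90AA1 and HSP90B1. FTH1, the ferritin heavy chain, lay at 1548, 1245 and 1611 CPM in control cells and 5518, 4295 and 5029 CPM in starved cells (1.75, SE 0.16). The groups did not overlap in FTH1. The mitochondrial ribosomal RNA MT-RNR2 lay at 1689.6, 5006 and 2321 CPM in control cells and 11727, 12285 and 3919.7 CPM in starved cells. Its groups overlapped, and its call (adjusted p = 0.0275) was lost without control replicate 1 or 3 or starved replicate 1 or 2 (adjusted p = 0.0872 to 0.0981). Among the largest losses were TUBA1B, MKI67, LINC01029, SOX10, LDHA, MCAM, DAG1, MCM4 and MCM7. The noncoding RNA LINC01029 fell from 463, 569.9 and 502 to 221, 233 and 219 CPM, and DAG1, dystroglycan, from 364, 416 and 394 to 182, 181 and 143 CPM. The tubulin TUBA1B and the helicase subunit MCM7 kept their call in the full set of libraries, at adjusted p = 0.0342 and 0.0222, and lost it without control replicate 1 or 3 or starved replicate 1 or 2 (0.107 to 0.124 and 0.0751 to 0.0873). FTH1, HSPA8, ACTG1 and MT-RNR2 have near copies elsewhere in the genome, and fragments that map to several places were not counted, so their levels are uncertain.

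**Figure D2:**
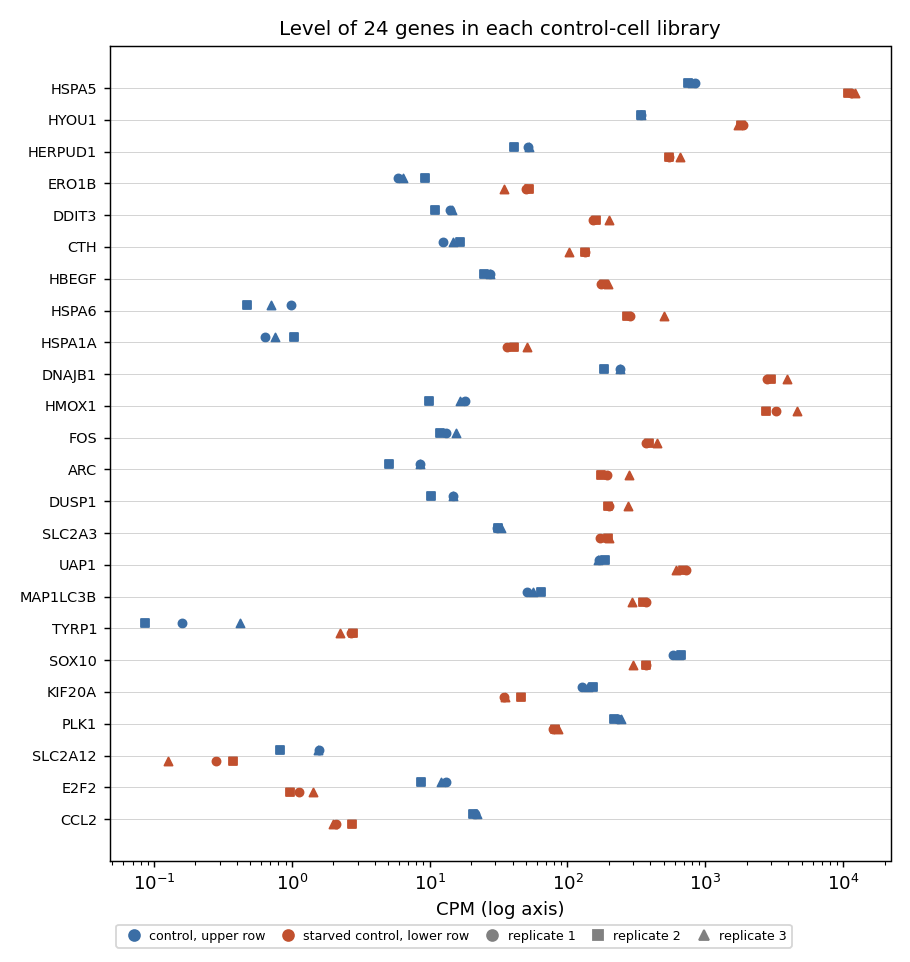
Level of 24 of the named genes in each control-cell library. The horizontal axis is CPM on a log scale, each row is a gene, the upper points of a row are control libraries, the lower points starved libraries, and the symbol marks the replicate number. Starved libraries lie to the right of all control libraries for HSPA5 (752 to 836 CPM in control cells), HMOX1 and FOS, and to the left for PLK1, E2F2 and CCL2 (20.7 to 22.0 CPM in control cells).

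Most chaperones of the ER lumen rose. HSPA5, the ER HSP70 known as BiP, lay at 836, 752 and 807 CPM in control cells and 11307, 10839 and 12190.0 CPM in starved cells, a rise of 14.3-fold (adjusted p = 2.36e-09). In the ER HSP70 and HSP90 chaperone list 17 of 20 members were higher and 1 was lower, with a median log2 fold change of 1.37 against -0.023 over all genes. HYOU1, its nucleotide exchange factor, lay at 344, 344 and 343 CPM in control cells and 1882, 1806 and 1728 CPM in starved cells (2.39, SE 0.086). MANF, a secreted ER protein, lay at 103, 107 and 101 CPM in control cells and 439, 425 and 393 CPM in starved cells (2.01, SE 0.084). No starved library of these genes overlapped with a control library. HSP90B1, the ER HSP90, lay at 538, 813 and 553 CPM in control cells and 2961, 2902 and 2094 CPM in starved cells. CNPY2 went against the list (-1.01, SE 0.16) at 4.08, 4.72 and 4.48 and 2.75, 1.88 and 1.98 CPM. The summed level of the 20 genes was 4408, 4685 and 4431 CPM in control cells and 22834, 22270 and 22302 CPM in starved cells. Of the 18 members with a promoter window, 5 held the ER stress element (27.8%). It was found in 0 of 23 windows of ER-associated degradation genes and 0 of 11 of integrated stress response factors.

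Of the 22 protein disulfide isomerases and ERO1 oxidases 10 were higher and 1 lower (median 0.33). ERO1B, an oxidase that recharges the isomerases, lay at 5.91, 9.21 and 6.36 CPM in control cells and 50.4, 52.4 and 34.6 CPM in starved cells (2.68, SE 0.21). PDIA4 rose by 1.901 (SE 0.14) and PDIA6 by 1.34 (SE 0.082), whereas the transmembrane member TMX4 fell (-0.44, SE 0.11). Of the 29 genes of ER-associated degradation 14 were higher and 1 lower (median 0.45). HERPUD1, which recruits the degradation machinery, lay at 51.9, 41.2 and 52.2 CPM in control cells and 546, 548 and 652 CPM in starved cells (3.59, SE 0.13). SEL1L, the partner of the ligase HRD1, rose by 2.03 (SE 0.11) and SELENOS by 1.55 (SE 0.084). UBE2G2, a ubiquitin-conjugating enzyme of the pathway, was the lower member (-0.27, SE 0.079, adjusted p = 0.0191), and its call was lost without control replicate 3 or starved replicate 1 or 3 (adjusted p = 0.0504 to 0.0675). Signal peptide processing and translocation genes were higher in 14 of 25 cases and lower in 0, and COPII and Golgi transport genes in 17 of 31 and 0. Among them were SEC24D, a cargo adaptor of COPII coats (1.87, SE 0.15), SEC23B (1.02, SE 0.094), SSR3 (1.07, SE 0.12) and SEC11C (0.93, SE 0.079). With only the 6 control-cell libraries in the fit, 9 of the 31 transport genes were higher.

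Among the genes of the sensors themselves, ERN1, EIF2AK3 and ATF6 were higher. ERN1, the kinase and nuclease that splices XBP1, lay at 11.1, 11.6 and 11.1 CPM in control cells and 57.9, 58.8 and 56.6 CPM in starved cells (2.36, SE 0.097, adjusted p = 2.59e-08). XBP1 lay at 62.5, 58.7 and 58.4 CPM in control cells and 244, 224 and 231 CPM in starved cells (1.96, SE 0.08), and EIF2AK3, the PERK kinase, at 13.7, 16.6 and 13.02 CPM in control cells and 47.3, 50.5 and 39.3 CPM in starved cells (1.66, SE 0.13). In all of these the starved libraries lay above the control libraries. Gene counts cannot tell spliced from unspliced XBP1. Of 14 sensors and factors 6 were higher and 2 lower, CREB3L1 (-1.17, SE 0.28), an ER-anchored factor, and TRAF2 (-0.92, SE 0.32, adjusted p = 0.0436), an IRE1 adaptor. TRAF2 lost its call without control replicate 1 or 3 or starved replicate 1 or 2 (adjusted p = 0.13 to 0.15), or without any 1 of the OGDH-depleted replicates 1, 2 and 3 and starved replicate 2 (0.0601 to 0.0607).

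FRG2B and FRG2C, whose function is not well known, stood among the carriers of the ER stress element and were chosen after their values were seen. FRG2B lay at 0.0396, 0 and 0 CPM in control cells and 2.64, 1.83 and 2.78 CPM in starved cells, and FRG2C at 0.0396, 0 and 0 CPM in control cells and 1.35, 1.18 and 1.68 CPM in starved cells. Their control libraries held 1 counted fragment or none. Promoter windows of both genes are the same over the printed bases, the copies are near-identical, and their separate levels are uncertain. The other carriers that were higher, also named after their values were seen, were SERP1 (1.44), CANX (0.896), EIF2A (0.91), TRIM5 (0.905), ALG12 (0.71), CRELD2 (2.51), FICD (2.22) and CALR (1.31), besides HSPA5, HSP90B1, XBP1 and ERO1B. ZNF17 (-0.39, adjusted p = 0.0474) was lower and TMEM120A (0.25) was not called.

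The hexosamine pathway, which turns fructose 6-phosphate into UDP-GlcNAc, rose at several steps. GFPT1, its rate-limiting enzyme, lay at 60.02, 79.5 and 59.6 CPM in control cells and 261, 267 and 220.4 CPM in starved cells (1.91, SE 0.13). UAP1, which makes UDP-GlcNAc, lay at 168, 187 and 167 CPM in control cells and 728, 689 and 615 CPM in starved cells (1.96, SE 0.094), and GFPT2 rose by 0.94 (SE 0.085). Starved and control libraries of these 3 genes did not overlap. OGA, which removes O-GlcNAc from proteins, fell from 185, 239.6 and 192 to 149, 161 and 135 CPM (-0.47, SE 0.11). In the list of 12 genes 6 were higher and 1 lower, with a median of 0.35.

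Transcription factors of the integrated stress response had the largest list median, 2.07, with 10 of 13 members higher and 2 lower. DDIT3, also called CHOP, lay at 14.1, 10.99 and 14.5 CPM in control cells and 154, 161 and 199 CPM in starved cells (3.696, SE 0.17, adjusted p = 5.32e-08). CEBPG, an ATF4 partner, lay at 31.3, 34.2 and 28.2 CPM in control cells and 163, 151 and 145 CPM in starved cells (2.29, SE 0.11), and ATF3 at 34.9, 28.5 and 35.04 CPM in control cells and 195, 208 and 248.6 CPM in starved cells (2.73, SE 0.14). No library overlapped in these genes. TRIB2, a pseudokinase, and ATF5 went the other way (-0.97, SE 0.101 and -0.54, SE 0.12), and ATF5 was not called with the GC offset (-0.31, adjusted p = 0.366). Among eIF2 kinases, phosphatase subunits and eIF2B, 6 of 15 were higher and 1 lower (median 0.18). PPP1R15A, the stress-induced phosphatase subunit GADD34, lay at 208, 163 and 208 CPM in control cells and 1637, 1712 and 1984 CPM in starved cells (3.202, SE 0.14). DNAJC3, an inhibitor of PERK, lay at 39.4, 44.8 and 39.2 CPM in control cells and 231, 208 and 204 CPM in starved cells (2.38, SE 0.1001). EIF2AK4, the amino acid sensor GCN2, fell (-0.44, SE 0.081). Without the 3 libraries that stood apart 11 of the 15 were higher.

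Aminoacyl-tRNA synthetases load amino acids onto tRNAs, with separate sets in the cytosol and in mitochondria. Of 20 cytosolic enzymes 11 were higher, 0 lower and 9 not called (median 0.59). WARS1 lay at 188, 217 and 199 CPM in control cells and 668, 741 and 593 CPM in starved cells (1.73, SE 0.11), SARS1 rose by 1.204 (SE 0.103) and IARS1 by 1.04 (SE 0.11). Of 16 mitochondrial enzymes 1 was higher and 4 were lower (median -0.27), and the lower count was 7 without control replicate 2, 7 without starved replicate 3 and 10 without the 3 libraries that stood apart. TARS2 (-0.82, SE 0.13), IARS2 and LARS2 were among those that fell, while WARS2 rose (0.996, SE 0.14). Whether the lists differ was not tested.

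Genes of amino acid transport and synthesis moved both ways. Of 21 plasma membrane transporters 11 were higher and 4 lower (median 0.58). SLC1A4, which carries serine and alanine, lay at 12.5, 10.8 and 11.4 CPM in control cells and 59.2, 55.4 and 64.5 CPM in starved cells (2.36, SE 0.11). SLC7A1, a cationic amino acid carrier, rose by 1.05 (SE 0.092) and SLC6A9, a glycine carrier, by 1.51 (SE 0.15), whereas the glutamate carriers SLC1A3 (-0.86) and SLC1A1 (-0.88), and SLC7A2 (-0.53) and SLC16A10 (-0.8003), fell. In serine and folate metabolism 7 of 17 were higher and 4 lower. The mitochondrial folate enzyme MTHFD2 lay at 179, 177 and 177 CPM in control cells and 438, 409 and 458 CPM in starved cells (1.29, SE 0.081), and the serine enzyme PSAT1 rose by 0.78 (SE 0.11). TYMS, the thymidylate synthase, fell by 0.74 on the log2 scale, and the cytosolic enzyme SHMT1 by 1.14. MTHFD1 (-0.34, adjusted p = 0.0483) lost its call with DESeq2 and without any 1 of the control replicates 1 and 3, the starved replicates 1 and 2, or the 6 OGDH-depleted libraries. CTH, which makes cysteine from cystathionine, lay at 12.6, 16.7 and 14.8 CPM in control cells and 133, 134 and 103 CPM in starved cells (3.07, SE 0.14). GCLM, a subunit of the first enzyme of glutathione synthesis, rose by 1.41 (SE 0.17), and CHAC1, which degrades glutathione, by 2.94 (SE 0.35). Transsulfuration and glutathione genes were higher in 6 of 17 cases and lower in 2, CHAC2 and ABCC1, the second of which lost its call without most single libraries.

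Of 18 stress-induced secreted factors 15 were higher and 1 lower (median 1.74). HBEGF and AREG, both ligands of the EGF receptor, lay at 27.2, 24.9 and 27.4 CPM in control cells and 175, 184 and 196 CPM in starved cells (2.802, SE 0.094) and at 12.8, 17.95 and 14.98 CPM in control cells and 188, 191 and 134 CPM in starved cells (3.49, SE 0.18). CCN2, a matricellular protein, lay at 67.7, 79.3 and 69.2 CPM in control cells and 375, 362 and 344 CPM in starved cells (2.32, SE 0.12). Another EGF receptor ligand, TGFA, moved the other way without overlap, at 275, 267 and 276 CPM in control cells and 104, 107 and 118 CPM in starved cells (-1.31, SE 0.086).

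Of 30 heat shock genes of the cytosol 22 were higher and 1 lower, HSPA14 (-0.53, SE 0.12), and the list median was 0.91. HSPA6, an HSP70 that is nearly silent without stress, lay at 0.991, 0.476 and 0.712 CPM in control cells and 285, 269.7 and 503 CPM in starved cells. HSPA1A lay at 0.634, 1.04 and 0.753 CPM in control cells and 36.6, 40.7 and 51.1 CPM in starved cells (5.72, SE 0.201). DNAJB1, the HSP40 that works with them, lay at 242, 184 and 239 CPM in control cells and 2796, 3019 and 3884 CPM in starved cells (3.86, SE 0.17). BAG3, a cochaperone, lay at 196, 203 and 225 CPM in control cells and 1273, 1330.3 and 1226 CPM in starved cells (2.62, SE 0.11). All starved libraries lay above all control libraries for these genes, as for 2900 of the 3151 genes called higher. HSPA1A and HSPA1B, and HSPA6 and HSPA7, are near-identical pairs that lost shared fragments, so their levels are uncertain. Of 23 mitochondrial chaperones and proteases 7 were higher and 0 lower, with a median of 0.061. Over all genes 17% were higher and 17.5% lower, with a median of -0.023. HSPA9, the mitochondrial HSP70, rose by 1.12 (SE 0.16), HSPE1 by 1.15 (SE 0.18) and HSPD1 by 0.78 (SE 0.15). With only control-cell libraries in the fit the count was 4.

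The heat shock element, TTCNNGAANNTTC or GAANNTTCNNGAA on either strand (the matches can overlap), stood in 35 of the 11816 windows (0.296%), of which 15 belonged to genes that were higher and 5 to genes that were lower. Of all 11816 windows, 2097 belonged to higher and 2237 to lower genes. The element occurred in 4 of the 26 windows of cytosolic heat shock genes (15.4%). The window of HSPA6 is shown because it had the largest increase.
HSPA6: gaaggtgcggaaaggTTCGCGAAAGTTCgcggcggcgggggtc
It lies at chr1:161524451-161524493 on the plus strand, 74 bases before the start. The C/EBP-ATF element TGATGNAA was found in 1.56% of all windows and 1 of 11 windows of integrated stress response factors. The antioxidant element TGACNNNGC was found in 12.1% of all windows and in 5 of 17 of the NRF2 list (29.4%). In the other lists searched it ranged from 0 of 11 integrated stress response factors to 4 of 18 ER chaperones (22.2%).

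Heme, iron and NRF2 genes showed large single changes. Beside HMOX1, BACH1, the heme-sensing repressor of HMOX1, lay at 27.8, 34.2 and 29.97 CPM in control cells and 84.0, 87.8 and 86.1 CPM in starved cells (1.49, SE 0.095). EPAS1, the hypoxia-inducible factor 2-alpha, lay at 2.89, 3.11 and 3.27 CPM in control cells and 17.5, 17.5 and 15.99 CPM in starved cells (2.46, SE 0.14). Neither overlapped between groups. Of 18 heme and iron genes 6 were higher and 3 lower (median 0.24), and the higher count was 10 without the 3 libraries that stood apart. FLVCR1, a heme exporter, fell (-0.41, SE 0.11). The iron sensors ACO1 (-0.35) and IREB2 (-0.37) lost their calls without starved replicate 1 or 2 (adjusted p = 0.0549 to 0.0985), ACO1 also without control replicate 1 (0.0881), and IREB2 also without control replicate 2 (0.144), starved replicate 3 (0.129) or any 1 of the OGDH-depleted replicates 1, 2 and 3 and starved replicates 1 and 2 (0.0562 to 0.0695). Of 21 NRF2 pathway and thioredoxin genes 11 were higher and 1 lower (median 0.60). TXNRD1, thioredoxin reductase, lay at 393, 403 and 365 CPM in control cells and 1339, 1197 and 1188 CPM in starved cells (1.68, SE 0.09), and SQSTM1, an autophagy receptor, at 658, 576 and 585 CPM in control cells and 2001, 2029 and 2147 CPM in starved cells (1.76, SE 0.12). ABCC2, a transporter of conjugates, fell (-0.48, SE 0.083). Only 6 of 14 genes of metallothioneins and zinc response passed the filter, with SLC39A14, a zinc and iron importer, higher (1.61, SE 0.17), the zinc-sensing factor MTF1 higher but not called without control replicate 1 or 3 or starved replicate 1 or 2, and the zinc exporter SLC30A1 lower (-0.44, SE 0.101).

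Immediate early factors rose in most families. Of 11 AP-1 genes 7 were higher and 0 lower (median 1.05). FOS lay at 13.2, 11.9 and 15.6 CPM in control cells and 370.3, 389 and 447 CPM in starved cells, FOSB at 24.3, 25.2 and 31.1 CPM in control cells and 475, 516 and 501 CPM in starved cells and JUN at 97.5, 83.9 and 102 CPM in control cells and 517, 587 and 644 CPM in starved cells. These 3 rose by 4.89 (SE 0.14), 4.21 (SE 0.12) and 2.62 (SE 0.12) with no overlap. Of 14 EGR, NR4A and serum response genes 12 were higher and 0 lower, with a median of 2.07. ARC, a synaptic immediate early gene, lay at 8.44, 5.06 and 8.46 CPM in control cells and 192, 175 and 279 CPM in starved cells (4.88, SE 0.25), and EGR2 at 4.16, 5.97 and 5.48 CPM in control cells and 37.4, 40.3 and 29.5 CPM in starved cells (2.78, SE 0.18). Of 13 Kruppel-like factors 10 were higher and 0 lower (median 1.501), among them KLF4 (2.66, SE 0.11), KLF2 (2.06, SE 0.12) and KLF6 (1.68, SE 0.12). The serum response element (CArG box) was found in 0.982% of all windows and in 2 of 8 windows of the EGR list.

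Negative regulators of these signals and mRNAs were among the genes that rose. DUSP1 and DUSP5, phosphatases of MAP kinases, lay at 14.7, 10.2 and 14.9 CPM in control cells and 199, 197 and 276 CPM in starved cells (4.08, SE 0.204) and 47.4, 36.9 and 43.9 CPM in control cells and 447, 391 and 494 CPM in starved cells (3.38, SE 0.12), and 6 of 11 phosphatases were higher and 0 lower. DUSP4 (-0.21, adjusted p = 0.166) and DUSP6 (-0.088, adjusted p = 0.588), phosphatases of ERK that were looked up after the results were seen, were not called. ZFP36, which marks AU-rich mRNAs for decay, lay at 25.96, 31.5 and 33.9 CPM in control cells and 507, 522 and 419 CPM in starved cells (3.98, SE 0.15). Starved libraries of DUSP1, DUSP5 and ZFP36 lay above all control libraries. Of 16 mRNA decay factors 10 were higher and 2 lower, with BTG1 (1.497, SE 0.089) and the nuclease ZC3H12A (1.87, SE 0.16) higher. The lower ones were the deadenylase subunits PAN2 and CNOT6, of which 1 was called without control replicate 1, control replicate 2 or starved replicate 3 and 0 without starved replicate 1. Outputs of ERK signalling were mixed, 7 of 19 higher and 4 lower. SPRY4, a feedback inhibitor, lay at 96.4, 111 and 100.2 CPM in control cells and 382, 380.1 and 304 CPM in starved cells (1.79, SE 0.12), MYC at 68.6, 73.1 and 70.3 CPM in control cells and 271, 269.9 and 222 CPM in starved cells (1.85, SE 0.13) and the receptor EPHA2 at 676, 434 and 662 CPM in control cells and 1308, 1234 and 1888 CPM in starved cells (1.32, SE 0.21). The lower ones were SPRY1 (-0.58, SE 0.15), SPRED1, ETV1 and ETV4. Their number was 2 without control replicate 2, starved replicate 1 or starved replicate 3, and 0 with only control-cell libraries in the fit.

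Inflammatory genes split. Of 17 chemokines and cytokines 11 were higher and 3 lower (median 0.997). IL6 lay at 3.21, 2.94 and 3.06 CPM in control cells and 18.97, 17.2 and 12.1 CPM in starved cells (2.38, SE 0.18) and IL24 at 19.9, 13.5 and 15.9 CPM in control cells and 63.4, 59.9 and 77.2 CPM in starved cells (2.03, SE 0.16), both without overlap. CSF1, the macrophage growth factor, and IL1B fell with CCL2, by 1.05 and 0.51 on the log2 scale. NF-kB subunits and inhibitors were higher in 8 of 17 cases and lower in 0. TNFAIP3, which ends NF-kB signalling, lay at 28.98, 30.2 and 25.9 CPM in control cells and 106, 103 and 96.02 CPM in starved cells (1.84, SE 0.098), and CYLD rose by 0.73 (SE 0.091) and NFKBIZ by 1.34 (SE 0.17). That count was 5 without control replicate 3, 3 with only control-cell libraries in the fit and 13 with the GC offset. Interferon and antigen presentation genes were lower in 9 of 28 cases and higher in 1 (median -0.29). Over all genes 17.5% were lower and 17% higher. IFI44 lay at 29.4, 38.5 and 31.6 CPM in control cells and 12.2, 14.2 and 13.8 CPM in starved cells (-1.303, SE 0.12), OAS3 at 104, 88.7 and 100.3 CPM in control cells and 46.9, 48.8 and 54.6 CPM in starved cells (-0.96, SE 0.098) and OAS1 at 3.88, 3.46 and 3.22 CPM in control cells and 0.954, 1.45 and 1.26 CPM in starved cells (-1.52, SE 0.19). The 3 interferon genes did not overlap between groups. ISG20 was the higher gene, and it was not called without starved replicate 3.

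**Figure D3:**
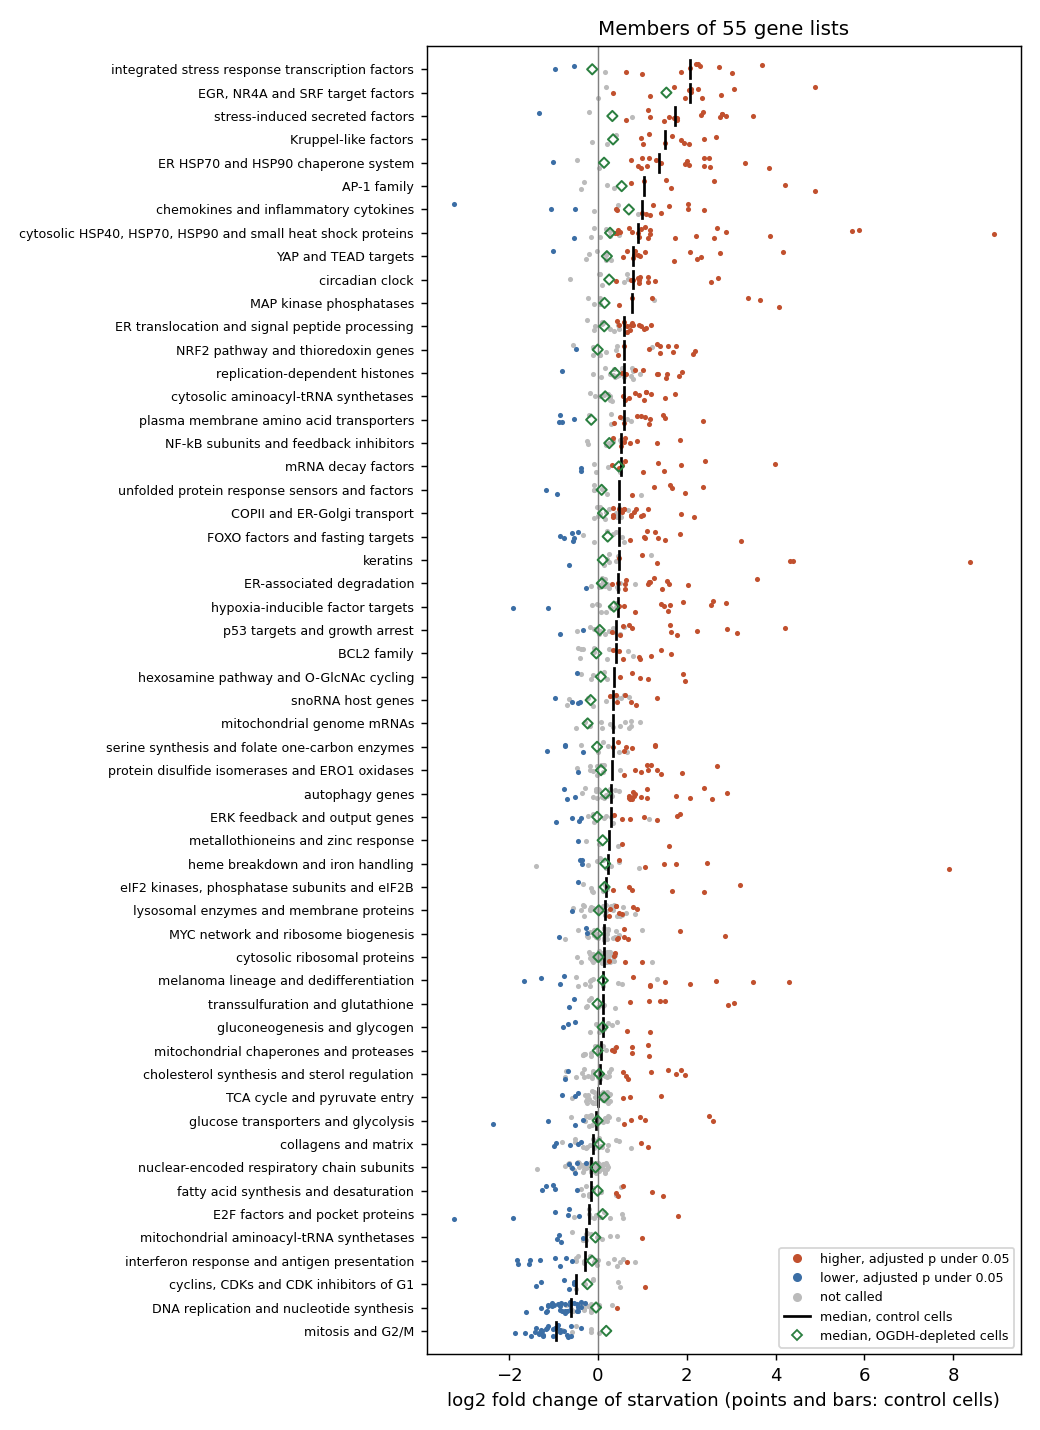
Members of 55 gene lists. The horizontal axis is the log2 fold change of starvation, each small point is a list member in control cells coloured by its call, the bar is the list's median in control cells and the open diamond its median in OGDH-depleted cells, and lists are ordered by the bar. The medians run from 2.07 for integrated stress response transcription factors to -0.94 for mitosis and G2/M, and the diamond of the latter stands at 0.19.

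Of 28 glucose transporter and glycolysis genes 6 were higher and 4 lower, a share close to the 34.5% called over all genes, with a median of -0.039 against -0.023 over all genes. SLC2A3, the high-affinity transporter GLUT3, lay at 30.7, 31.4 and 32.98 CPM in control cells and 172, 197 and 200.4 CPM in starved cells (2.58, SE 0.095, adjusted p = 1.24e-08). SLC2A12 lay at 1.59, 0.822 and 1.55 CPM in control cells and 0.281, 0.376 and 0.126 CPM in starved cells (-2.37, SE 0.37). Both separated the groups in opposite directions. PFKFB2, which makes the activator of phosphofructokinase, rose (1.06, SE 0.14) and its paralogue PFKFB4 fell from 137, 93.7 and 132 to 47.5, 48.5 and 69.1 CPM (-1.13, SE 0.198). The lactate carrier SLC16A1 rose (0.75, SE 0.077). PGAM1 fell (-0.51, SE 0.081), and LDHA (-0.32, adjusted p = 0.0108) lost its call with only control-cell libraries in the fit (adjusted p = 0.0818). Without the 3 libraries that stood apart 16 of the 28 were lower. SLC2A3 and SLC2A14 are near copies, and their levels are uncertain. In gluconeogenesis and glycogen metabolism 2 of 14 were higher and 3 lower. Among them, the branching enzyme GBE1 rose (0.66, SE 0.079) and the synthase GYS1 fell (-0.66, SE 0.13), both calls lost with the GC offset (adjusted p = 0.0516 and 0.0662), and PPP1R3D, a phosphatase subunit of glycogen, fell (-0.78, SE 0.17). PCK2 (1.18, adjusted p = 0.0323) lost its call without control replicate 2 or 3 or starved replicate 3 (adjusted p = 0.0669 to 0.119).

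Of 37 tricarboxylic acid cycle and pyruvate genes 3 were higher and 3 lower (median -0.0035), under the 34.5% called over all genes. Without the 3 libraries that stood apart 10 were higher and 13 lower, where 11298 of all 18526 genes were called. GOT1, the cytosolic aspartate aminotransferase, lay at 58.7, 42.6 and 53.9 CPM in control cells and 133, 122 and 163 CPM in starved cells (1.43, SE 0.14), GLUD1, glutamate dehydrogenase, at 89.8, 101 and 89.9 CPM in control cells and 153, 139 and 127 CPM in starved cells (0.57, SE 0.102) and PDK3, a kinase that inhibits pyruvate dehydrogenase, at 23.6, 28.98 and 22.1 CPM in control cells and 15.3, 14.6 and 13.1 CPM in starved cells (-0.798, SE 0.12). No library overlapped in these. The others called were PDK4, higher, and DLAT and PDK2, lower, and 5 genes were higher without control replicate 2. OGDH lay at 156, 142 and 166 CPM in control cells and 129, 133 and 130.5 CPM in starved cells and was not called (-0.24, SE 0.099, adjusted p = 0.0813), but passed without control replicate 2 (-0.30, adjusted p = 0.0366). Of 64 nuclear-encoded respiratory chain subunits 0 were higher and 5 lower (median -0.15). NDUFB3 fell from 22.7, 18.7 and 21.4 to 14.8, 11.5 and 13.9 CPM (-0.64, SE 0.15) and NDUFB1 from 20.3, 17.1 and 20.7 to 12.3, 13.7 and 14.9 CPM (-0.51, SE 0.12), and NDUFA11, NDUFS6 and UQCRFS1 were the others. This list rested on single libraries: 11 were lower without control replicate 2, 10 without starved replicate 3, 2 without any 1 of the other 4 control-cell libraries, and 42 without the 3 libraries that stood apart. Of the 13 mRNAs of the mitochondrial genome edgeR and DESeq2 each called 0, and in edgeR 0 had a raw p under 0.05. Without those 3 libraries 12 were higher, in a fit that cannot tell library composition from starvation.

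Sterol and fatty acid genes went both ways. Of 29 cholesterol genes 8 were higher and 2 lower (median 0.044), a share close to the 34.5% called over all genes. INSIG1, which retains the sterol sensor in the ER, lay at 37.7, 38.8 and 36.5 CPM in control cells and 140.0, 141 and 132 CPM in starved cells (1.87, SE 0.08). HMGCS1, an early enzyme of the pathway, lay at 46.2, 50.8 and 45.1 CPM in control cells and 139, 148 and 135 CPM in starved cells (1.57, SE 0.093), and ABCA1, which exports cholesterol, at 7.85, 8.44 and 7.62 CPM in control cells and 30.6, 31.4 and 31.7 CPM in starved cells (1.97, SE 0.11). The groups did not overlap in these. The factor SREBF1 (-0.74, adjusted p = 0.0172) lost its call without control replicate 1 or 3 or starved replicate 1 or 2 (adjusted p = 0.0617 to 0.0712), and 4 cholesterol genes were lower without starved replicate 3 and 12 without the 3 libraries that stood apart. Of 20 fatty acid genes 5 were higher and 5 lower. ELOVL6, an elongase, lay at 30.8, 46.3 and 33.03 CPM in control cells and 17.1, 16.9 and 12.5 CPM in starved cells (-1.25, SE 0.19). ACACB, an acetyl-CoA carboxylase, fell by 1.01 and GPAM, which starts glycerolipid synthesis, by 0.96 on the log2 scale. The desaturases SCD and SCD5 were the other lower genes, and ELOVL5, ELOVL7, ACSL1, ACSL3 and LPIN2 the higher ones.

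Most genes of cell division fell. Of 34 mitosis and G2/M genes 27 were lower and 0 higher, with a median of -0.94. KIF20A, a mitotic kinesin, lay at 128, 154 and 141 CPM in control cells and 34.9, 46.1 and 34.97 CPM in starved cells (-1.87, SE 0.13, adjusted p = 8.36e-07). PLK1, a mitotic kinase, lay at 233, 219 and 246 CPM in control cells and 78.6, 81.6 and 84.8 CPM in starved cells (-1.51, SE 0.092), and AURKA, the Aurora A kinase, at 98.4, 108 and 99.8 CPM in control cells and 37.5, 41.5 and 38.2 CPM in starved cells (-1.38, SE 0.085). Starved libraries lay below all control libraries for these kinases and for MKI67, the proliferation marker, at 418, 878 and 553 CPM in control cells and 257, 269.9 and 164 CPM in starved cells (-1.42, SE 0.28). In bulk RNA fewer cells in mitosis and less RNA per cell cannot be told apart. Of 45 replication and nucleotide synthesis genes 30 were lower and 1 higher (median -0.61). PCNA, the sliding clamp, lay at 228, 233 and 214 CPM in control cells and 102, 96.6 and 101 CPM in starved cells (-1.17, SE 0.077). MCM6 fell by 1.12 and MCM3 by 1.02 on the log2 scale. CDC6, which loads the MCM helicase, lay at 95.5, 90.5 and 96.2 CPM in control cells and 131, 122 and 128 CPM in starved cells and rose (0.43, SE 0.08).

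Promoters of these genes are shown because motifs of their known regulators were frequent in them. The cell cycle homology region TTTGAA was found in 8.81% of all 11816 windows and in 15 of 27 windows of mitosis genes (55.6%). E2F elements (TTTGGCGC, TTTCCCGC, TTTGGCGG or TTTCCCGG, either strand) were found in 5.70% of all windows, in 17 of 38 windows of replication genes (44.7%) and in 1 of 27 of mitosis genes. CDC6, the member that rose, held an E2F element as MCM3 did. Among all genes called lower, 5.81% of windows held an E2F element, and 4.40% among those lower by at least 2-fold. For the homology region these shares were 10.55% and 13.3%. The cyclic AMP element TGACGTCA was found in 2.70% of all windows, 3 of 27 of mitosis genes and 4 of 38 of replication genes.
PLK1: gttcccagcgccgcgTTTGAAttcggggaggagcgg
CCNB2: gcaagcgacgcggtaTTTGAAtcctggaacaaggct
MCM3: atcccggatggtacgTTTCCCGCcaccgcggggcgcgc
CDC6: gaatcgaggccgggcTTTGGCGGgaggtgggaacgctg
They lie at chr16:23678845-23678880 on the plus strand (PLK1, 29 bases before the start), chr15:59105102-59105137 on the plus strand (CCNB2, 29 bases), chr6:52284894-52284931 on the minus strand (MCM3, 174 bases) and chr17:40287836-40287873 on the plus strand (CDC6, 28 bases). CCNB2, a cyclin named for this motif after its value was seen, stood at -0.92 (SE 0.08).

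Factors that set entry into the cycle moved apart. Of 18 E2F and pocket protein genes 6 were lower and 1 higher. The activator E2F2 lay at 13.1, 8.65 and 12.01 CPM in control cells and 1.12, 0.967 and 1.43 CPM in starved cells (-3.24, SE 0.22). E2F7 and E2F8 are paralogous repressors, and they moved in opposite directions: E2F7 lay at 99.1, 134 and 112 CPM in control cells and 409.8, 434 and 351 CPM in starved cells (1.79, SE 0.13) and E2F8 at 6.14, 9.52 and 8.96 CPM in control cells and 2.13, 2.58 and 1.81 CPM in starved cells (-1.92, SE 0.21). None of these 3 overlapped between groups. Of 13 G1 cyclins, kinases and inhibitors 6 were lower and 1 higher. CCNE1, cyclin E1, rose from 33.7, 32.4 and 33.5 to 65.7, 71.6 and 71.95 CPM (1.07, SE 0.091), while its partner CDK2 fell (-0.77, SE 0.085) and SKP2, which targets CDK inhibitors for degradation, fell by 1.39 on the log2 scale. Of 29 replication-dependent histone genes that passed the filter, of 60 listed, 10 were higher and 1 lower (median 0.60). H2BC8 stood at 0.872, 0.995 and 0.921 CPM in control cells and 2.69, 4.14 and 3.58 CPM in starved cells (1.898, SE 0.19). H4-16 was the lower one, and its call was lost without control replicate 3 or starved replicate 1 or 3. These mRNAs carry no poly-A tail, near copies share fragments, and how RNA was selected for the libraries is not given in the sources used here.

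Of 26 p53 target and growth arrest genes 12 were higher and 2 lower (median 0.42). GADD45A lay at 105, 93.9 and 102 CPM in control cells and 459, 462 and 501 CPM in starved cells (2.24, SE 0.086), GADD45B at 24.4, 14.7 and 26.2 CPM in control cells and 169, 167 and 236 CPM in starved cells (3.13, SE 0.24) and SESN2, an inhibitor of mTORC1 signalling, at 47.6, 31.02 and 47.8 CPM in control cells and 274, 259.8 and 409.9 CPM in starved cells (2.899, SE 0.24). Its paralogue SESN1 fell (-0.86, SE 0.103), and so did XPC, a DNA repair gene whose call was lost without control replicate 1 or 3, starved replicate 1 or 2, OGDH-depleted replicate 1 or 2 or starved OGDH-depleted replicate 2. Starved libraries of all 4 were separate from control libraries. Of 18 BCL2 family genes 8 were higher and 0 lower, and they were found on both sides of the family: PMAIP1, a promoter of apoptosis, lay at 92.8, 121 and 90.4 CPM in control cells and 317, 354 and 279.8 CPM in starved cells (1.64, SE 0.14), and BCL2L1, an inhibitor of it, at 127, 122 and 139 CPM in control cells and 247, 247 and 240.5 CPM in starved cells (0.92, SE 0.081). Without the 3 libraries that stood apart 9 were higher and 7 lower. In the list of MYC partners and ribosome biogenesis 7 of 35 were higher and 3 lower, under the 34.5% called over all genes. MXD1, which competes with MYC for its partner MAX, lay at 31.7, 49.1 and 34.5 CPM in control cells and 295, 334 and 215 CPM in starved cells (2.87, SE 0.21), and UBTF, a factor of ribosomal RNA genes, fell (-0.88, SE 0.093) with RRP1B and POLR1C. The lower count was 5 without control replicate 2 or starved replicate 3 and 1 without any 1 of the other 4 control-cell libraries. The higher count was 4 without control replicate 1, control replicate 3 or starved replicate 2, and 15 without the 3 libraries that stood apart. Of 69 cytosolic ribosomal protein genes 5 were higher and 0 lower (median 0.14). The higher count was 3 without control replicate 3 or starved replicate 1, and 12 were higher and 28 lower without the 3 libraries. RPL28 rose from 958, 983 and 1038 to 1549, 1564 and 1433 CPM (0.61, SE 0.099), and RPL29, RPS4X, RPS13 and RPS27 were the others.

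Autophagy genes were higher in 15 of 37 cases and lower in 3 (median 0.29). MAP1LC3B, the LC3 protein of autophagosomes, lay at 51.3, 64.5 and 56.3 CPM in control cells and 374, 355 and 292 CPM in starved cells (2.57, SE 0.12), and WIPI1, which acts in their formation, at 13.04, 13.3 and 13.1 CPM in control cells and 69.7, 68.3 and 69.5 CPM in starved cells (2.39, SE 0.104). Both separated the groups. PIK3R4, ATG4C and ULK2 fell by 0.77, 0.69 and 0.51 on the log2 scale. Of 39 lysosomal genes 8 were higher and 1 lower, under the 34.5% called over all genes. They were led by CTSL, a protease (0.89, SE 0.089), and NPC1, which exports cholesterol from lysosomes (0.79, SE 0.082). The lower gene was SGSH, a sulfatase. The higher count of lysosomal genes was 5 without control replicate 1 or 3, 4 without starved replicate 1 and 3 with only control-cell libraries in the fit.

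Lineage genes of melanocytes and of dedifferentiated melanoma did not move as blocks: 8 of 23 were higher and 4 lower. SOX10, the factor of the melanocyte lineage, fell (-0.86, SE 0.12) from 581, 670.3 and 647 to 372, 374 and 299 CPM, and was not called with the GC offset (adjusted p = 0.082). WNT5A, a ligand of dedifferentiated melanoma, lay at 59.1, 71.2 and 58.6 CPM in control cells and 20.3, 19.9 and 19.9 CPM in starved cells (-1.65, SE 0.097). TYRP1, a melanosome enzyme, lay at 0.159, 0.0865 and 0.419 CPM in control cells and 2.69, 2.79 and 2.23 CPM in starved cells (3.502, SE 0.41, adjusted p = 5.66e-05), and its log2 fold change was 4.31 without control replicate 3. No library overlapped in the 3 genes. The neurotrophin receptor NGFR rose by 1.17 (SE 0.094), and S100B and TWIST1 were the other lower genes. SNAI2 and SOX9, factors of the neural crest named after their values were seen, lay at 0.396, 0.995 and 0.628 CPM in control cells and 17.5, 15.96 and 6.48 CPM in starved cells (4.301, SE 0.47) and 9.71, 18.3 and 12.6 CPM in control cells and 101, 103 and 52.4 CPM in starved cells (2.66, SE 0.35).

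Of 22 YAP and TEAD targets 14 were higher and 1 lower (median 0.80). ANKRD1 lay at 7.096, 8.91 and 8.16 CPM in control cells and 155, 157 and 123 CPM in starved cells (4.17, SE 0.16) and F3, tissue factor, at 8.96, 9.52 and 8.83 CPM in control cells and 64.3, 62.9 and 56.1 CPM in starved cells (2.75, SE 0.103). The coactivator WWTR1, also called TAZ, fell from 232, 322 and 259.7 to 137, 158 and 110.5 CPM (-1.01, SE 0.16). Of 23 hypoxia-inducible factor targets 11 were higher and 2 lower (median 0.45), with NDRG1 at 172, 139 and 183 CPM in control cells and 553, 624 and 699 CPM in starved cells (1.92, SE 0.14). Among 22 FOXO and fasting genes 9 were higher and 6 lower. TXNIP, an inhibitor of glucose uptake whose transcription is known to follow glucose, lay at 10.7, 10.8 and 11.1 CPM in control cells and 7.01, 8.11 and 6.65 CPM in starved cells (-0.58, SE 0.13). CITED2 lay at 58.4, 101 and 66.8 CPM in control cells and 859.9, 799.6 and 443 CPM in starved cells (3.22, SE 0.29), and the ubiquitin ligase FBXO32 at 12.5, 13.8 and 10.2 CPM in control cells and 46.9, 41.9 and 43.3 CPM in starved cells (1.85, SE 0.13). Of 19 clock genes 12 were higher and 0 lower (median 0.78), with the repressors NFIL3 and BHLHE40 at 5.15, 8.18 and 6.32 CPM in control cells and 44.6, 47.3 and 36.7 CPM in starved cells (2.71, SE 0.17) and 35.4, 31.5 and 33.4 CPM in control cells and 187, 196 and 204 CPM in starved cells (2.55, SE 0.094). NR1D1, another repressor, rose by 1.12 (SE 0.11). Starved libraries of these clock genes lay above all control libraries.

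Of 14 keratins 6 were higher and 1 lower. KRT16, a keratin of stressed epidermis, lay at 0.119, 0 and 0.0419 CPM in control cells and 17.002, 15.3 and 27.9 CPM in starved cells, KRT6A, its partner, at 0.396, 0.216 and 0.795 CPM in control cells and 9.93, 8.598 and 11.3 CPM in starved cells and KRT18, a simple epithelial keratin, at 294, 298 and 297 CPM in control cells and 722, 759 and 748 CPM in starved cells. These 3 had separate groups, and KRT18 rose by 1.33 (SE 0.083). KRT6B, another paralogue, was the lower member. KRT6A, KRT16 and their paralogues share sequence and their levels are uncertain. KRT16 was close to 0 in control cells, and its fitted log2 fold change of 8.37 moved to 9.56 without control replicate 1, as that of KRT6A (4.39) moved to 4.99 without control replicate 3. Collagen and matrix genes were lower in 5 of 26 cases and higher in 2, under the 34.5% called over all genes. COL4A1 (-0.94, SE 0.1003), COL5A2, COL16A1, LAMA4 and LAMB1 fell, and fibronectin, FN1 (0.96, SE 0.089), and the collagen chaperone SERPINH1 rose. Without control replicate 2 the higher count was 4, and without the 3 libraries that stood apart 14 were lower. Of 20 snoRNA host genes 7 were higher and 4 lower, with GAS5 at 145, 155 and 139 CPM in control cells and 226, 253 and 253 CPM in starved cells (0.74, SE 0.092) and SNHG4 at 93.8, 91.5 and 88.6 CPM in control cells and 44.4, 48.8 and 47.6 CPM in starved cells (-0.96, SE 0.098). SNHG3, SNHG14 and DANCR were lower with SNHG4. The higher count was 4 without control replicate 3.

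The response of control cells was then set against that of OGDH-depleted cells, by the interaction term of the same edgeR model, which tests whether the 2 starvation responses differ. It called 3196 of 18526 genes (17.3%), of which 2800 were also among the 6400 starvation genes of control cells, 87.6% of the first set and 43.75% of the second. Among these, the response of depleted minus that of control cells was negative for 1395 of 1397 higher genes and positive for 1392 of 1403 lower genes. These counts include genes that moved in the opposite direction in depleted cells. The 2 terms share the control libraries, and these genes were chosen by their response in control cells. Neither the overlap nor the direction of the differences is therefore an independent result. Starvation of the depleted cells alone called 1330 genes (7.18%). In control cells HSPA5 rose by 3.84, and in depleted cells it stood at 0.26 (difference -3.58, SE 0.14, adjusted p = 3.21e-07). FOS rose by 4.89 and by 4.41, and the difference was not called (-0.48, SE 0.17, adjusted p = 0.0719). CCL2 fell by 3.24 in control cells and stood at 0.85 in depleted cells (difference 4.08, SE 0.22, adjusted p = 1.33e-06).

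By list, the difference was called for 28 of 34 mitosis genes, 23 of 45 replication genes, 14 of 20 ER chaperones, 10 of 13 integrated stress response factors and 15 of 30 cytosolic heat shock genes. Called differences, the response of depleted minus that of control cells, were all negative in the chaperone and heat shock lists and all positive in mitosis. It was called for 2 of 14 EGR, NR4A and serum response genes, near the 17.3% over all genes, and for 1 of 17 NF-kB genes and 1 of 29 histone genes. Whether lists differ in these counts was not tested. The medians in depleted cells were 0.14 for ER chaperones, -0.13 for integrated stress response factors, 1.54 for EGR, NR4A and serum response genes and 0.19 for mitosis. PLK1 and KIF20A stood at -0.091 and 0.19 in depleted cells, and DDIT3 and UAP1 at 0.53 and 0.017.

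**Figure D4:**
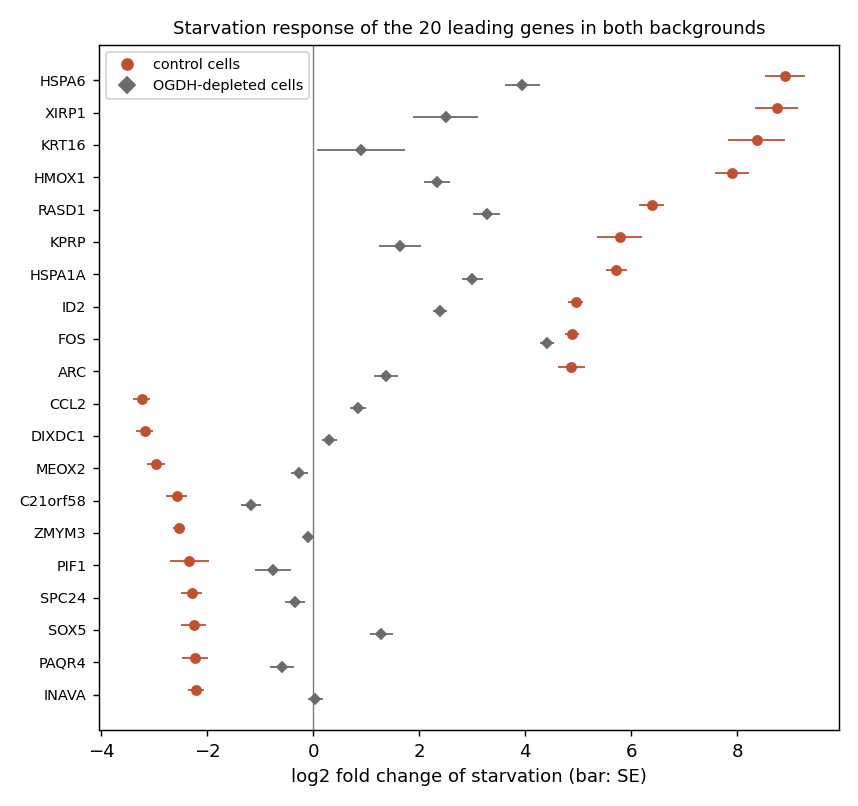
Starvation response of the 20 leading genes in both backgrounds. The horizontal axis is the log2 fold change of starvation with its SE as a bar, each row is a gene, circles are control cells and diamonds OGDH-depleted cells. The diamond lies nearer to 0 than the circle for each of the 20 genes, on the other side of 0 for CCL2, DIXDC1, SOX5 and INAVA, and closest to its circle for FOS, at 4.89 and 4.41. The genes were chosen for their large changes in control cells, which favours smaller changes in depleted cells.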

How the data were processed

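RNA of A375 cells was sequenced in 12 libraries, 3 per group, and grouped by sample title. The authors deposited 1 table of raw counts, and per the file headers featureCounts 2.0.1 assigned fragments to exons, grouped by gene name, unstranded and with no option for multiple mapping, so fragments mapping to several places were left out. Genome hg38 and Subread are named per the submitters' processing notes, and the aligner is not given in the sources used here. All libraries held 21556273 to 25546615 counts.

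From these counts, edgeR 4.0.16 (R 4.3.3) fitted a quasi-likelihood model of the 4 groups to all 12 libraries, after its filter on low counts (minimum count 10, minimum total 15) and TMM scaling. CPM are counts scaled by these library sizes. Of 61209 names 18526 were tested, holding 99.872% of the counts, and 80 names lie on several chromosomes. P-values were adjusted by Benjamini-Hochberg, with a threshold of 0.05. The SE is the log2 fold change divided by the root of the F statistic. The fit was tested on simulated data. Transcript GC content came from GENCODE transcripts for 15554 tested genes (83.96%), promoters from RefSeq.

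The comparison, the gene lists and the motifs were chosen with earlier results of these data known. Named genes were OGDH, the 10 largest increases and decreases reaching a mean of 20 CPM without overlap, the 10 largest gains and losses in CPM, and in each of 55 lists the 3 called members with the smallest p and called members against the majority. Other genes named to complete a count, or as promoter or marker genes, were chosen after their values were seen. Some genes that the rule names are not reported here. Alternatives were DESeq2 1.42.0, other scalings and filters, a GC offset, a 1.5-fold test, a replicate block, a fit of the 6 control-cell libraries, and leaving out libraries. Where edgeR called 0 genes of a list in a direction, 0 also had a raw p under 0.05 there and DESeq2 called 0, except that 1 AP-1 gene was lower by both, 1 respiratory chain gene higher by DESeq2 and 1 ribosomal protein gene lower by raw p. Whether replicate numbers pair the libraries could not be decided, and the main fit did not pair them.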

Additional observations from a re-analysis of the deposited data

Results flagged for a closer look

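The leading genes were flagged because the starvation response differed between control and OGDH-depleted cells by the interaction term of the edgeR model, given here as the response of depleted cells minus that of control cells on the log2 scale. Among the genes with the largest increases the difference was -4.952 for HSPA6, -6.24 for XIRP1, -7.463 for KRT16, -5.559 for HMOX1 and -3.113 for RASD1. It was -4.145 for KPRP, -2.715 for HSPA1A, -2.562 for ID2 and -3.506 for ARC. Among the genes with the largest decreases it was 4.083 for CCL2, 3.483 for DIXDC1, 2.706 for MEOX2, 1.412 for C21orf58 and 2.439 for ZMYM3. It was 1.588 for PIF1, 1.947 for SPC24, 3.544 for SOX5, 1.641 for PAQR4 and 2.253 for INAVA. FOS was the leading gene without a called difference. The leading genes were chosen for their changes in control cells, which favours smaller changes in depleted cells.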

How the results depend on the processing

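Of the 253 named genes, 252 were called, and 171 kept their call and direction under all 23 alternatives. No direction reversed. A test against a 1.5-fold change called 2287 genes, 1273 higher and 1014 lower, and 1080 for the difference between backgrounds. Without the 3 libraries that stood apart, chosen after their composition was seen, 11298 genes were called (5682 higher, 5616 lower; 2195 and 2169 by at least 2-fold), and 8057 for the difference between backgrounds. That difference was called for 4997 genes with the GC offset. The fit without the 3 libraries cannot tell library composition from starvation. With only control-cell libraries 4321 genes were called, 2083 of them lower. Leaving out 1 library at a time gave 4945 to 7426 genes (2437 to 3838 higher, 2466 to 3588 lower), 1304 to 1695 higher and 1144 to 1535 lower by at least 2-fold, and 2287 to 3316 for the difference between backgrounds. DESeq2 called 6741 genes. Upper-quartile scaling called 2850 higher and 3774 lower. Same-numbered control and starved libraries had deviations that correlated at -0.42, 0.59 and 0.44, and not every library correlated best with its own number. Deviations from a mean of 3 libraries depend on each other, and 2 of the libraries stood apart. Whether the numbers pair the libraries could therefore not be decided. The replicate block called 6032 genes, 3013 higher and 3019 lower, and 2759 for the difference between backgrounds. Without the 2 control-cell libraries that stood apart, the mitochondrial share of counts was 8.14 percentage points higher in starved cells, against 1.92 with them. These 2 are the libraries whose shares lay with the other group, so the larger gap follows from leaving them out. The causes were not tested.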
